A study of Homo sapiens with 16 samples.

Results

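The genes described here are 39 mitotic G2/M genes, that is, genes whose transcripts accumulate as cells approach division and whose products carry out mitosis. They were chosen by name and function, not by a value, but with earlier results of these data known. All probes of the array named for one of these genes were taken. The 39 genes had 49 probes, out of 34600 probes of 26368 genes that could be tested, and all 39 were well above background on all 16 arrays. RNA of 16HBE cells, a human bronchial epithelial line immortalised with SV40 large T antigen, was hybridised to one-colour Agilent arrays with 60-base probes. Of the 4 groups, 16HBE-WT has the unedited MET receptor gene and received no HGF, and 16HBE-WT+HGF is the same line with HGF, the ligand of MET. 16HBE-ex14 carries METex14, a CRISPR/Cas9 edit at the splice donor region of the exon for the juxtamembrane domain, so that MET transcripts skip this exon. 16HBE-ex14+HGF is the edited line with HGF. Each group had 4 arrays, and the HGF groups were stimulated with 20 ng/mL during 24 h, following a starvation of 2 h. The 16HBE-ex14 cells are 1 clone (clone F), so the edit and whatever else sets this clone apart cannot be told apart. Nothing in the labels ties an array to a separate weekly culture, so p values measure the spread between these samples only.

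Most of these genes are silent or low in resting cells and in G1, and they are switched on in a wave that runs from S phase into mitosis. FOXM1, together with MYBL2 and the MuvB complex, drives this wave by binding promoters that carry the cell cycle genes homology region (CHR), often with CCAAT boxes bound by NF-Y. The same CHR elements are bound by the DREAM repressor complex when cells leave the cycle. Because the genes share this timing, their summed level is widely read as a measure of how many cells are in G2 and mitosis. In RNA from a whole culture, fewer cells in these phases and less of each transcript per cell cannot be told apart.

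A level here is the log2 of a spot's intensity minus the log2 of the 75th percentile of its array, so 0 is that percentile. A gene is read from its brightest probe, and differences are in log2 units. A gene was called when limma gave an adjusted p (Benjamini-Hochberg over all 34600 probes) below 0.05 and the fold change was above 1.5. Each of 2 slides held 2 rows of 4 arrays with 1 array per group in a row. Epithelial markers were well above background on all arrays (6 of 6), while 5 of 8 fibroblast markers and 3 of 5 endothelial markers, among them COL1A2, COL3A1 and PECAM1, were on none. Another 2 of the fibroblast markers and 2 of the endothelial markers were above background on all arrays. The fibroblast list had a summed linear level of 0.355 to 1.1 and the endothelial list one of 0.278 to 0.62. Of the leukocyte markers on the array, 4 of 5 were above background on all arrays, with a summed linear level of 0.866 to 1.57 against 1750 to 2240 for the epithelial list. The share of probes above background ran from 49% to 60.3% over the arrays, with a median of 57.85% for 16HBE-ex14+HGF (55.7% to 60.3%) against 52.1% to 52.8% for the other 3 groups, of which 16HBE-ex14 reached 57% and 16HBE-WT+HGF 56.1%. The MET probe (chr7:116438290-116438349, hg19) lies at the 3′ end of the gene, outside the skipped exon, and so does not check the edit.

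The mean level of the 39 genes was lowest in 16HBE-ex14 cells that had received HGF. On replicates 1 to 4 this score was 3.864, 3.762, 3.896 and 3.924 in 16HBE-WT and 3.691, 3.816, 3.966 and 3.943 after HGF. For 16HBE-ex14 it was 3.704, 3.719, 3.746 and 3.910, and with HGF it was 3.455, 3.389, 3.614 and 3.549. All 4 arrays of 16HBE-ex14+HGF lay below each of the other 12 arrays, and the other 3 groups overlapped. As mean ± SD (n = 4), the wild type had 3.86 ± 0.071 without and 3.85 ± 0.127 with HGF, and the edited clone had 3.77 ± 0.095 without and 3.502 ± 0.10 with HGF. The step with HGF in the clone was larger than the SD of any group. No p is given for this score, because the genes were chosen with results of these data known.

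**Figure D1:**
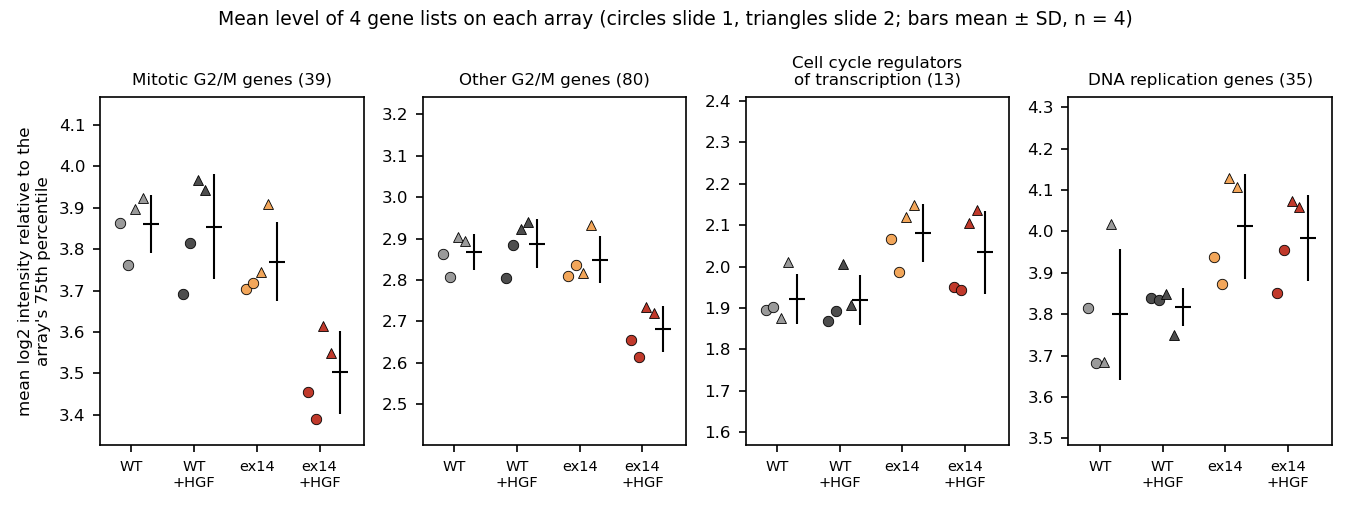
Score of the 39 mitotic G2/M genes (mean log2 level relative to the 75th percentile of the array, vertical axis) on each of the 16 arrays by group, with the mean and SD of the 4 arrays of a group. The 16HBE-ex14+HGF arrays, between 3.389 and 3.614, are the lowest, and the other groups overlap between 3.691 and 3.966.

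The first question was how HGF changed these genes in each genotype. In 16HBE-ex14 cells the log2 difference with HGF was below 0 for all 39 genes, with a median of -0.304 and a range from -0.581 to -0.0029, against 39.6% of all genes below 0 and a median of 0.059. The same sign was seen for all 49 probes. Among genes at least as bright as the dimmest of the 39, 48.2% were below 0, with a median of 0.0069. None of the 39 genes was called by limma, where 0.986% of all genes were called lower and 1.13% higher, and 21 of the 39 had an unadjusted p below 0.05, against 14.3% of all genes in either direction. By adjusted p alone, 3 genes were lower (1.6% of all genes against 1.46% higher), namely KIF20A, TOP2A and KIF23, each below the fold limit. By adjusted p alone with slide as a block, a combination chosen after seeing the data, 11 were lower. The share of all genes under that fit is not given here, so the 11 cannot be set against it. For 13 of the 39 genes (33.3%) all 4 arrays with HGF lay below all 4 without, which held for 4.46% of all genes and for 7.08% of the genes at least as bright as the dimmest of the 39. The differences were thus small and in one direction, and no single gene passed both thresholds. Leaving out 16HBE-ex14 replicate 3 gave 3 calls (CDC25C, KIF20A and TOP2A). Leaving out either replicate 1 of 16HBE-ex14 or replicate 3 of 16HBE-ex14+HGF gave 1 call (KIF20A). The shares of all genes called without these arrays are not given here.

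The difference in score with HGF in 16HBE-ex14 was -0.268, and it was -0.289 on the first slide and -0.246 on the second. Within the 4 rows it was -0.248, -0.33, -0.132 and -0.361. Scaling the arrays to their median in place of the 75th percentile moved the median of all genes to -0.1 and the score to -0.427. Relative to all genes the score was -0.327 under both. Such scaling shifts all genes of an array by the same amount, so this relative value is bound to stay and is no check. The score difference itself was -0.336 with scaling to spike-in RNA, -0.259 with another background correction and -0.275 with quantile normalization. The share of probes above background also moved with this shift, as given above, and its part in it was not tested.

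In 16HBE-WT cells the 39 genes lay on both sides of 0 with HGF. The difference in score was -0.008, with -0.059 on the first slide and 0.044 on the second, and 18 of the 39 genes were below 0, against 39% of all genes. With scaling to the median, which moved the median of all genes from 0.0415 to -0.0759, all 39 were below 0. Relative to all genes the score was -0.05 before and -0.049 after, a value that such scaling cannot change beyond rounding. None of the 39 genes was called by limma and none had an unadjusted p below 0.05, while 0% of all genes were called and 4.71% had such a p. The 2 lowest differences were those of KIF20A (-0.27) and TOP2A (-0.24), which also stood lowest in 16HBE-ex14. The difference between the HGF responses of the genotypes was below 0 for all 39 genes (49.7% of all genes, and 57.1% of those at least as bright as the dimmest of the 39). It had a median of -0.264 and a score of -0.26. limma called none of the 39 for this difference and 0% of all genes. The smallest adjusted p was 0.757, for KIF23, and 10 of the 39 genes had an unadjusted p below 0.05, against 4.6% of all genes. For no single gene was the HGF response shown to differ between the genotypes.

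**Figure D2:**
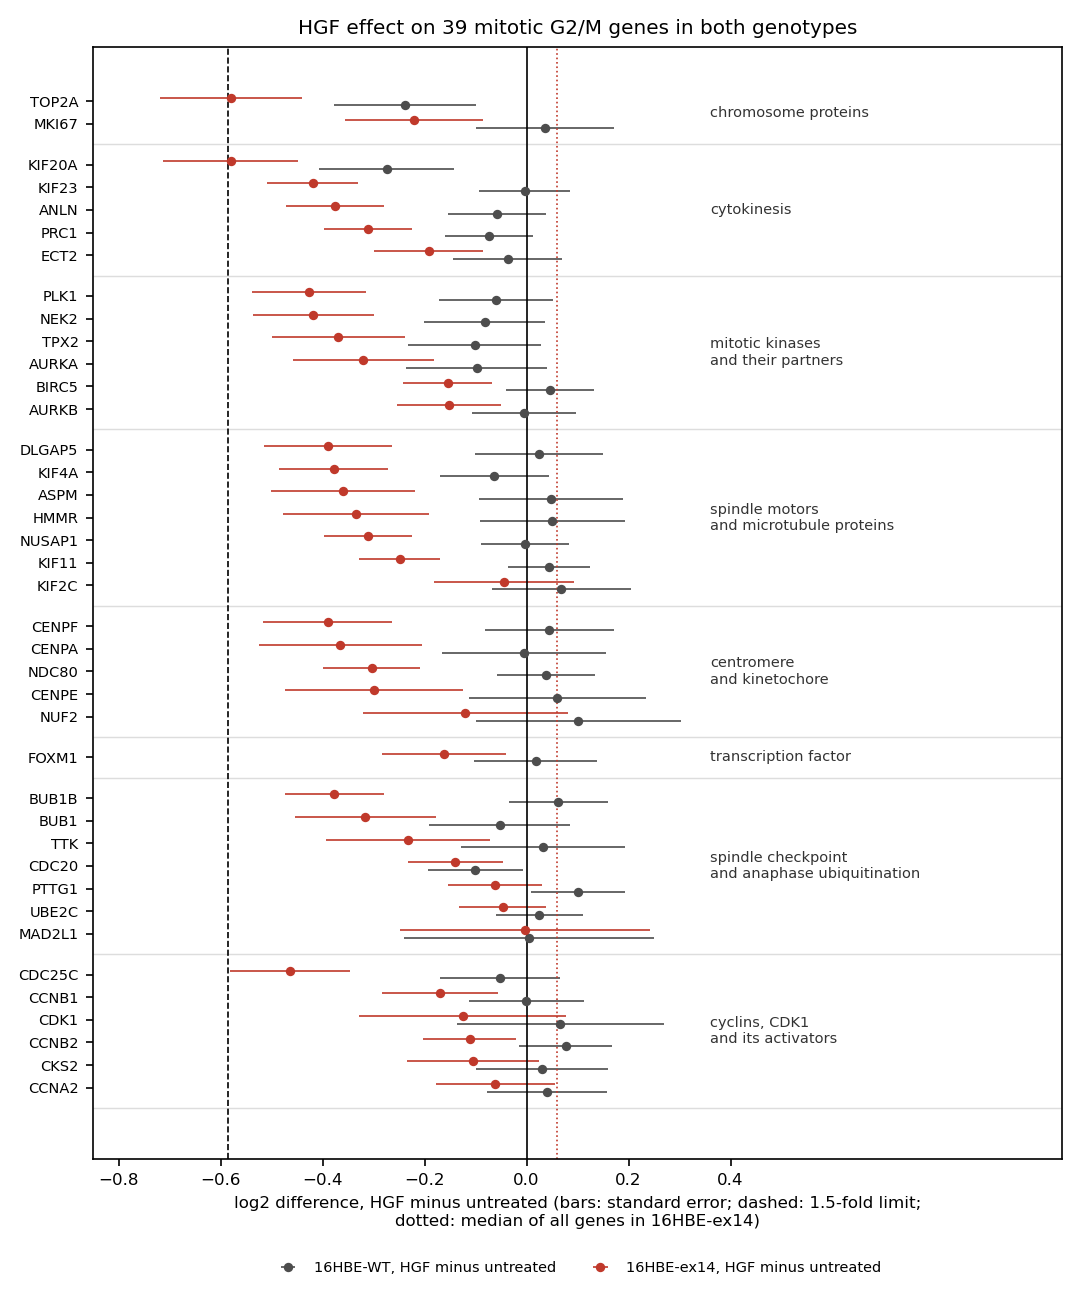
Log2 difference with HGF for each of the 39 genes, ordered by role, in 16HBE-ex14 and in 16HBE-WT cells. In 16HBE-ex14 every gene lies below 0, down to -0.58 for KIF20A, and in 16HBE-WT the genes lie on both sides of 0 at the scaling used.

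The second question was how the edited clone differed from 16HBE-WT. Without HGF the 39 genes were split, 20 below 0 with a median of -0.0294, against 51.6% of all genes and a median of -0.0145. Genes at least as bright as the dimmest of the 39 had 40.5% below 0 and a median of 0.0672. CDC20 and TTK were called lower and none was called higher, where 4.75% of all genes were called lower and 4.51% higher, so the share of the 39 called was near that of all genes. By adjusted p alone 8 were lower (8.34% of all genes) and 3 were higher (9.91%), namely FOXM1, KIF11 and CCNB2. An unadjusted p below 0.05 was found for 15, against 30% of all genes. For 8 genes (20.5%) the arrays of the clone lay below all 4 of the wild type, against 9.8% of all genes. The difference in score was -0.092 (-0.102 and -0.082 on the slides), and 0.045 with scaling to the median, which moved the median of all genes from -0.0145 to 0.123. Relative to all genes it was -0.078 under both, which such scaling cannot change, and 0.099 with normexp, so its sign depended on the background correction. The calls of CDC20 and TTK were both lost with normexp background correction, with scaling to the median and with scaling to spike-in RNA. CDC20 also lost its call without 16HBE-ex14 replicate 1 or 16HBE-WT replicate 3, which left TTK alone. Without 16HBE-WT replicate 2 or 16HBE-ex14 replicate 4, 5 genes were called (AURKA, BUB1, CDC20, KIF20A and TTK). The share of all genes called without these arrays is not given here.

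With HGF on both sides, 34 of the 39 genes were lower in 16HBE-ex14+HGF than in 16HBE-WT+HGF, with a median of -0.344, against 49.8% of all genes below 0 and a median of 0.0024. Genes at least as bright as the dimmest of the 39 had 43.4% below 0 and a median of 0.0554. Of the 39, 11 were called lower and none higher, where 5.36% of all genes were called lower and 5.3% higher. By adjusted p alone 17 were lower and none higher, against 9.97% and 10.6% of all genes, and 23 had an unadjusted p below 0.05, against 31.6% in either direction. For 18 genes (46.2%) the 4 arrays of 16HBE-ex14+HGF lay below all 4 of 16HBE-WT+HGF, against 11.6% of all genes. The difference in score was -0.352, with -0.332 and -0.373 on the slides. Relative to the median of all genes it was -0.354, and with normexp, where that median was -0.134, it was -0.126. The 11 genes called were TTK, DLGAP5, KIF20A, BUB1, NDC80, CENPA, AURKA, TOP2A, ANLN, CDC20 and CDC25C, and all 11 remained called when any 1 of the 16 arrays was left out. ANLN, CDC20 and CDC25C lost the call with normexp background correction and with median scaling, where their folds came under the limit (8 called in each), and none of the 39 was called with limma's treat, which tests against the fold limit itself. This comparison shares the 16HBE-ex14+HGF arrays with that of HGF in 16HBE-ex14, so the values of both are given side by side below and are not independent of each other.

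**Figure D3:**
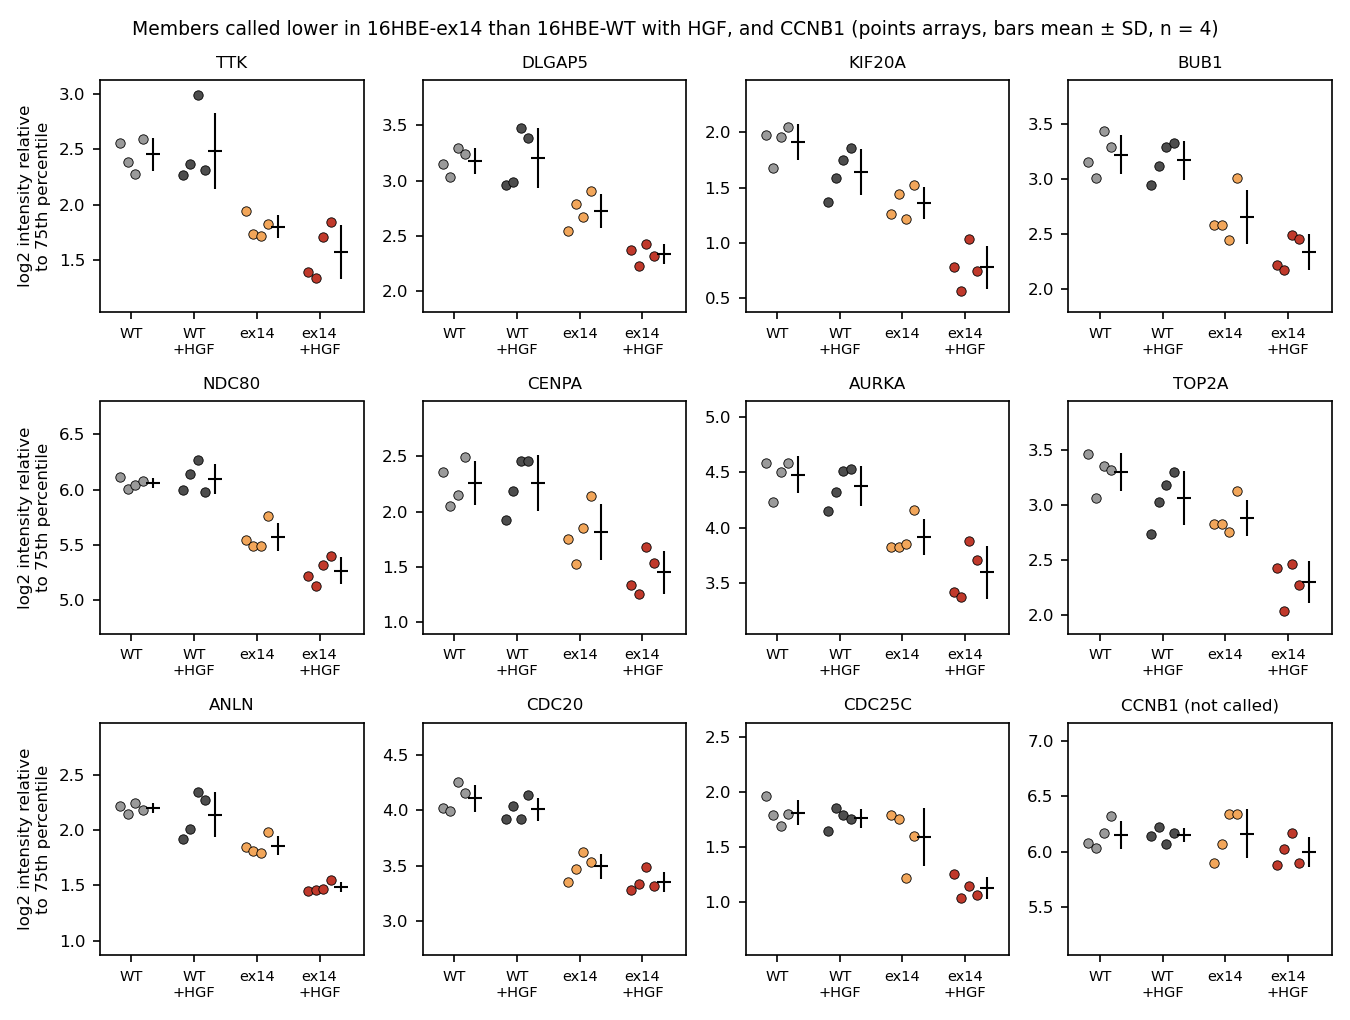
Log2 level on each array of the 11 genes called between the genotypes with HGF, relative to the mean of the gene over the 16HBE-WT arrays. The stimulated arrays of the clone lie lowest on average for these genes, and its arrays without HGF lie on average between them and the wild type.

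Promoter sequences are shown for 8 of the genes called with HGF, and for CCNB1, CCNB2 and KIF11, which were not called there, so that the shared elements can be compared. Each is the 120 bases before the start of the gene, read on the strand of the gene from RefSeq (GRCh38.p14). Capitals mark the CHR-like letters TTTGAA or TTTAAA and the CCAAT box, each searched on both strands, so that they may read TTCAAA or ATTGG. Overlapping matches were both marked.
DLGAP5 (chr14:55191586-55191705, minus strand): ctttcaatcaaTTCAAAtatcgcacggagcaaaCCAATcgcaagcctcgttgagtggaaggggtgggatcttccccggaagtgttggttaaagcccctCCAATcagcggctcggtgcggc
KIF20A (chr5:138178992-138179111, plus strand): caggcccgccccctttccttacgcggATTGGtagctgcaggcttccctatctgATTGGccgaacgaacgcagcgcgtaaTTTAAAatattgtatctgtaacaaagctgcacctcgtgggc
BUB1 (chr2:110678064-110678183, minus strand): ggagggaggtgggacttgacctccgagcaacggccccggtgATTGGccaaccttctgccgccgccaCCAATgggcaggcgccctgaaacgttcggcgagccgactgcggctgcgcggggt
NDC80 (chr18:2571437-2571556, plus strand): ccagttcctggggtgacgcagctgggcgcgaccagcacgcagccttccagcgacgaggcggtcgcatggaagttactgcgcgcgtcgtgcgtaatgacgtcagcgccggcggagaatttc
CENPA (chr2:26785936-26786055, plus strand): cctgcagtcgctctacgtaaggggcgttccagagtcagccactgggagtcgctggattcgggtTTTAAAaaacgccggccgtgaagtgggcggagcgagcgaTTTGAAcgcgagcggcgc
TOP2A (chr17:40417897-40418016, minus strand): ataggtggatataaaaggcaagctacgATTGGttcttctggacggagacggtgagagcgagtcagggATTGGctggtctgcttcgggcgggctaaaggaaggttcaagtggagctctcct
ANLN (chr7:36389742-36389861, plus strand): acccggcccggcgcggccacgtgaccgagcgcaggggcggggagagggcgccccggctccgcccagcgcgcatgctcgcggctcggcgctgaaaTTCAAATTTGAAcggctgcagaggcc
CDC20 (chr1:43358861-43358980, plus strand): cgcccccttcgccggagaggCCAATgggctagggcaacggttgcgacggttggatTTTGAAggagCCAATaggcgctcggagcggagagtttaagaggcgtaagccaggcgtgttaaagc
CCNB1 (chr5:69167030-69167149, plus strand): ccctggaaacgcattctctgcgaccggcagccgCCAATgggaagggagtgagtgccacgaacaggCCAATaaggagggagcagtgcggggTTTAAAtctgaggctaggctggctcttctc
CCNB2 (chr15:59105026-59105145, plus strand): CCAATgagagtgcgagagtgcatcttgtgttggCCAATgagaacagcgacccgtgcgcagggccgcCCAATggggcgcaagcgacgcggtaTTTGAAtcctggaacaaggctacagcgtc
KIF11 (chr10:92593010-92593129, plus strand): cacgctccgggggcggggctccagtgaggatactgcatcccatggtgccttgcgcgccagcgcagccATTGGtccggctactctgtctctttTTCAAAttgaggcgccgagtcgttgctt

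Both kinds of element recur in this set. DLGAP5, KIF20A, CDC20, CCNB1, CCNB2 and KIF11 hold a CHR-like match with CCAAT boxes, CENPA and ANLN hold CHR-like matches without a CCAAT box, and BUB1 and TOP2A hold CCAAT boxes without a CHR-like match in the stretch shown. The NDC80 stretch shows no match of either kind. In the wider window used for the counts that follow, CENPA also holds CCAAT, and TOP2A and NDC80 hold TTTGAA. In windows from 250 bases before to 50 after the start, 33 of the 39 genes had an entry, and BIRC5, TTK, FOXM1, TPX2, UBE2C and AURKA had none. TTTGAA was found for 24 of the 33 genes (72.7%), against 18.2% of all 27305 genes with an entry, and TTTAAA for 13 (39.4%), against 14.5%. Either was found for 29 (87.9% against 27.9%), CCAAT for 27 (81.8% against 39.7%), and a CHR-like match together with CCAAT for 23 (69.7% against 11.2%). The median difference with HGF in 16HBE-ex14 was -0.311 for the genes with a CHR-like match and -0.234 for the 4 without. In the stretches shown, both kinds of match occur among genes that were called with HGF and among genes that were not. Their shares in called and uncalled genes were not compared, and a match is a description of the sequence, not a binding site.

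Cyclins, CDK1 and its activators form the engine of mitotic entry, and by their brightest probes they had a median of -0.118 with HGF in 16HBE-ex14 (6 genes). The lowest of them was CDC25C, the phosphatase that removes inhibitory phosphates from CDK1. Its level on replicates 1 to 4 was 1.97, 1.79, 1.70 and 1.80 in 16HBE-WT and 1.65, 1.85, 1.79 and 1.76 after HGF, while 16HBE-ex14 read 1.79, 1.75, 1.22 and 1.61 and then 1.26, 1.04, 1.15 and 1.07 after HGF. The arrays of 16HBE-ex14+HGF lay below all wild-type arrays, while 16HBE-ex14 replicate 3, at 1.22, fell within their range. CDC25C was called lower between the genotypes with HGF (-0.63, SE 0.118, adjusted p = 0.00155), and its difference with HGF in 16HBE-ex14 was -0.46 (SE 0.118, adjusted p = 0.050, not below the limit).

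CCNB1 encodes cyclin B1, the partner of CDK1 in mitosis. Its level was 6.08, 6.03, 6.17 and 6.33 in 16HBE-WT and 6.14, 6.22, 6.07 and 6.17 after HGF, while 16HBE-ex14 read 5.90, 6.07, 6.34 and 6.35 and then 5.88, 6.03, 6.17 and 5.90 after HGF. All groups overlapped, and neither its difference with HGF in 16HBE-ex14 (-0.17, SE 0.113, adjusted p = 0.560) nor that between the genotypes with HGF (-0.16, adjusted p = 0.389) was called. Its other probe differed more with HGF in 16HBE-ex14 (-0.41, SE 0.105, adjusted p = 0.0499, below the fold limit), the widest gap between probes of a gene in that comparison. CDK1 itself was 4.15, 4.21, 3.93 and 4.14 in 16HBE-WT and 3.80, 4.06, 4.80 and 4.04 after HGF, while 16HBE-ex14 read 4.83, 4.33, 4.36 and 4.57 and then 4.17, 4.11, 4.51 and 4.79 after HGF. Its 16HBE-ex14 arrays were all above the 16HBE-WT arrays, but its spread was wide. Between the genotypes it was called neither without HGF (0.42, SE 0.203, adjusted p = 0.186) nor with it (0.22, adjusted p = 0.504). The other probe of CDK1 was at 0.42 without HGF and -0.025 with it, so the probes differed in sign with HGF. CCNA2, cyclin A2, and CCNB2, cyclin B2, differed with HGF in 16HBE-ex14 by -0.061 and -0.11. CCNB2 was higher in 16HBE-ex14 without HGF by adjusted p alone (0.30, adjusted p = 0.0325). CKS2, a small subunit that binds CDK1, differed with HGF in 16HBE-ex14 by -0.11.

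FOXM1, the transcription factor of the G2/M wave, did not share the direction of the called genes between the genotypes. Its level was 3.59, 3.495, 3.69 and 3.93 in 16HBE-WT and 3.62, 3.73, 3.60 and 3.83 after HGF, while 16HBE-ex14 read 3.94, 3.997, 4.33 and 4.36 and then 3.92, 3.95, 4.16 and 3.95 after HGF. All 16HBE-ex14 arrays lay above all 16HBE-WT arrays, and likewise with HGF. The genotype difference was 0.48 without HGF (SE 0.121, adjusted p = 0.0127, below the fold limit) and 0.30 with it (adjusted p = 0.10), and the difference with HGF in 16HBE-ex14 was -0.16 (adjusted p = 0.620).

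The mitotic kinases and their partners (6 genes) had a median of -0.345 with HGF in 16HBE-ex14. AURKA, the kinase that matures centrosomes and builds the spindle poles, was 4.59, 4.23, 4.504 and 4.59 in 16HBE-WT and 4.15, 4.32, 4.52 and 4.53 after HGF, while 16HBE-ex14 read 3.83, 3.82, 3.85 and 4.16 and then 3.42, 3.37, 3.88 and 3.704 after HGF. The arrays of the edited clone lay below those of the wild type both without and with HGF, although 16HBE-ex14 replicate 4 stood above the other arrays of its group. AURKA was called lower with HGF on both sides (-0.79, SE 0.138, adjusted p = 0.000994) and was lower by adjusted p alone without it (-0.56, adjusted p = 0.0105), and its difference with HGF in 16HBE-ex14 was -0.32 (adjusted p = 0.300).

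PLK1, the kinase that acts from mitotic entry to cytokinesis, was lower with HGF on every 16HBE-ex14 array, without being called. It was 2.73, 2.55, 2.76 and 2.71 in 16HBE-WT and 2.55, 2.64, 2.51 and 2.80 after HGF, while 16HBE-ex14 read 2.67, 2.82, 2.82 and 3.01 and then 2.44, 2.42, 2.61 and 2.14 after HGF. All 4 arrays of 16HBE-ex14+HGF lay below all 4 of 16HBE-ex14, while they overlapped those of 16HBE-WT+HGF. The difference with HGF in 16HBE-ex14 was -0.43 (SE 0.111, adjusted p = 0.0556), and the genotype difference was 0.14 without HGF and -0.22 with it (adjusted p = 0.187). NEK2, a centrosome kinase, differed with HGF in 16HBE-ex14 by -0.42 (adjusted p = 0.0827). TPX2, the activator of AURKA on the spindle, differed by -0.37 and was lower between the genotypes with HGF by adjusted p alone (-0.55, adjusted p = 0.00757). AURKB and BIRC5 (survivin), both of the chromosomal passenger complex, each differed by -0.15 with HGF in 16HBE-ex14.

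The spindle checkpoint and the machinery that starts anaphase (7 genes) had a median of -0.14 with HGF in 16HBE-ex14 but held 3 of the 11 genes called between the genotypes with HGF. TTK, the kinase at the head of the checkpoint, was 2.55, 2.38, 2.28 and 2.60 in 16HBE-WT and 2.27, 2.36, 2.995 and 2.31 after HGF, while 16HBE-ex14 read 1.94, 1.73, 1.71 and 1.82 and then 1.39, 1.34, 1.71 and 1.84 after HGF. Every array of the edited clone lay below every wild-type array, and the 2 groups of the clone overlapped. TTK was lower by 0.92 with HGF on both sides (log2 difference -0.92, SE 0.161, adjusted p = 0.000983) and by 0.65 without it (-0.65, SE 0.161, adjusted p = 0.0109), and differed by -0.23 with HGF in 16HBE-ex14 (adjusted p = 0.579). Without 16HBE-WT+HGF replicate 3, its highest array, the difference with HGF on both sides was -0.75 and was still called.

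CDC20, the activator of the anaphase-promoting complex, behaved likewise. It was 4.02, 3.998, 4.26 and 4.16 in 16HBE-WT and 3.93, 4.04, 3.92 and 4.14 after HGF, while 16HBE-ex14 read 3.35, 3.47, 3.62 and 3.53 and then 3.28, 3.34, 3.49 and 3.31 after HGF. The genotypes did not overlap, and the groups with and without HGF did within each genotype. It was called lower with HGF (-0.66, SE 0.0932, adjusted p = 2e-04) and without it (-0.62, SE 0.0932, adjusted p = 0.000391), and differed by -0.14 with HGF in 16HBE-ex14 (adjusted p = 0.559).

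BUB1, a checkpoint kinase at the kinetochore, was 3.15, 3.01, 3.43 and 3.29 in 16HBE-WT and 2.94, 3.12, 3.29 and 3.33 after HGF, while 16HBE-ex14 read 2.59, 2.58, 2.45 and 3.01 and then 2.23, 2.18, 2.49 and 2.46 after HGF. The genotypes did not overlap with HGF or without it, although without HGF the highest array of the clone (3.011) lay just under the lowest of the wild type (3.013). BUB1 was called lower with HGF (-0.83, SE 0.139, adjusted p = 0.000712), was lower by adjusted p alone without it (-0.57, adjusted p = 0.0108), and differed by -0.32 with HGF in 16HBE-ex14 (adjusted p = 0.312). BUB1B, its relative in the checkpoint complex, was lower with HGF between the genotypes by adjusted p alone (-0.56, adjusted p = 0.000903), and its difference with HGF in 16HBE-ex14 was -0.38 (adjusted p = 0.0524).

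UBE2C, the ubiquitin-conjugating enzyme of the anaphase-promoting complex, was nearly level. It was 6.39, 6.50, 6.49 and 6.58 in 16HBE-WT and 6.46, 6.52, 6.52 and 6.57 after HGF, while 16HBE-ex14 read 6.38, 6.46, 6.57 and 6.62 and then 6.34, 6.38, 6.60 and 6.51 after HGF. The groups overlapped, its difference with HGF in 16HBE-ex14 was -0.047 (SE 0.0851, adjusted p = 0.877), and that between the genotypes with HGF was -0.060 (adjusted p = 0.695), with a sign that turned under normexp and median scaling. PTTG1, securin, differed with HGF in 16HBE-ex14 by -0.061, and MAD2L1, a checkpoint protein that binds CDC20, by -0.0029, the smallest of the 39.

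The centromere and kinetochore genes (5 genes) had a median of -0.304 with HGF in 16HBE-ex14. NDC80, a subunit of the complex that joins kinetochores to microtubules, was 6.11, 6.002, 6.04 and 6.08 in 16HBE-WT and 5.996, 6.14, 6.27 and 5.98 after HGF, while 16HBE-ex14 read 5.55, 5.49, 5.49 and 5.76 and then 5.22, 5.13, 5.32 and 5.40 after HGF. The arrays stood in 3 steps, with both wild-type groups on top, 16HBE-ex14 below them and 16HBE-ex14+HGF lowest, without overlap between steps. NDC80 was called lower with HGF between the genotypes (-0.83, SE 0.0956, adjusted p = 3.58e-05), was lower by adjusted p alone without it (-0.49, adjusted p = 0.00258), and differed by -0.30 with HGF in 16HBE-ex14 (adjusted p = 0.123).

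CENPA, the histone H3 variant that marks centromeres, was 2.35, 2.05, 2.15 and 2.49 in 16HBE-WT and 1.93, 2.19, 2.46 and 2.46 after HGF, while 16HBE-ex14 read 1.75, 1.52, 1.85 and 2.14 and then 1.34, 1.25, 1.68 and 1.54 after HGF. With HGF the genotypes did not overlap, and without it they did. CENPA was called lower with HGF (-0.81, SE 0.160, adjusted p = 0.00234), and was not past the adjusted p without it (-0.45, adjusted p = 0.0674) or for HGF in 16HBE-ex14 (-0.37, adjusted p = 0.308). CENPF and CENPE, large kinetochore proteins, differed with HGF in 16HBE-ex14 by -0.39 and -0.30, and NUF2, the partner of NDC80, by -0.12.

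The spindle motors and microtubule proteins (7 genes) had a median of -0.335 with HGF in 16HBE-ex14, and 6 of the 7 had an unadjusted p below 0.05. DLGAP5, which bundles the microtubules of the spindle near chromosomes, was 3.15, 3.03, 3.30 and 3.24 in 16HBE-WT and 2.96, 2.99, 3.48 and 3.39 after HGF, while 16HBE-ex14 read 2.54, 2.79, 2.67 and 2.91 and then 2.37, 2.23, 2.43 and 2.32 after HGF. Its arrays stood in the same 3 steps as NDC80, without overlap between them. DLGAP5 was called lower with HGF between the genotypes (-0.87, SE 0.126, adjusted p = 0.000242), was lower by adjusted p alone without it (-0.45, adjusted p = 0.0216), and differed by -0.39 with HGF in 16HBE-ex14 (adjusted p = 0.136).

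KIF11, the motor that pushes spindle poles apart, was higher in 16HBE-ex14 without HGF by adjusted p alone (0.46, adjusted p = 0.000997) and differed by 0.17 with it (adjusted p = 0.158). Its difference with HGF in 16HBE-ex14 was -0.25. KIF4A, a chromosome-bound motor, differed with HGF in 16HBE-ex14 by -0.38, NUSAP1 by -0.31, HMMR by -0.34 and ASPM by -0.36, all of them proteins of the spindle. KIF2C, a motor that takes microtubules apart, differed by -0.045. Between the genotypes with HGF, HMMR (-0.46), KIF2C (-0.41) and KIF4A (-0.34) were lower by adjusted p alone.

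The cytokinesis genes (5 genes) had a median of -0.376 with HGF in 16HBE-ex14, the lowest of the roles with more than 2 genes, and for 4 of the 5 the arrays did not overlap. KIF20A, a motor of the central spindle (hg19 chr5:137522081-137522804, a probe of 60 bases that spans 724 bases of the genome), was 1.98, 1.68, 1.96 and 2.05 in 16HBE-WT and 1.37, 1.58, 1.75 and 1.86 after HGF, while 16HBE-ex14 read 1.26, 1.44, 1.22 and 1.53 and then 0.78, 0.57, 1.03 and 0.74 after HGF. The arrays of 16HBE-ex14+HGF stood apart below all others. Its difference with HGF was -0.58 in 16HBE-ex14 (SE 0.132, adjusted p = 0.0281, with a fold just below the limit) and -0.27 in 16HBE-WT. It was called lower with HGF between the genotypes (-0.86, SE 0.132, adjusted p = 0.000353) and was lower by adjusted p alone without it (-0.55, adjusted p = 0.00874).

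ANLN, anillin of the contractile ring, was 2.22, 2.14, 2.25 and 2.19 in 16HBE-WT and 1.92, 2.01, 2.35 and 2.28 after HGF, while 16HBE-ex14 read 1.85, 1.81, 1.79 and 1.98 and then 1.45, 1.46, 1.47 and 1.55 after HGF. The 16HBE-ex14+HGF arrays lay close together and below all others. ANLN was called lower with HGF between the genotypes (-0.66, SE 0.0962, adjusted p = 0.000243), was lower by adjusted p alone without it (-0.34, adjusted p = 0.023), and differed by -0.38 with HGF in 16HBE-ex14 (adjusted p = 0.0514).

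KIF23, the motor subunit of centralspindlin, was chosen for its values here, as it had the smallest adjusted p for HGF in 16HBE-ex14. It was 5.24, 5.04, 5.17 and 5.29 in 16HBE-WT and 5.17, 5.18, 5.13 and 5.25 after HGF, while 16HBE-ex14 read 5.05, 5.20, 5.19 and 5.39 and then 4.86, 4.75, 4.86 and 4.69 after HGF. The first 3 groups overlapped and 16HBE-ex14+HGF lay below all of them, with a difference of -0.42 from 16HBE-ex14 (adjusted p = 0.0203) and of -0.39 from 16HBE-WT+HGF (adjusted p = 0.00621), both below the fold limit. PRC1, which bundles the central spindle, and ECT2, which activates RhoA at the cleavage plane, differed with HGF in 16HBE-ex14 by -0.31 and -0.19.

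Of the chromosome proteins, TOP2A, the topoisomerase that untangles sister chromatids, was 3.46, 3.06, 3.35 and 3.32 in 16HBE-WT and 2.73, 3.03, 3.18 and 3.30 after HGF, while 16HBE-ex14 read 2.83, 2.83, 2.76 and 3.12 and then 2.43, 2.04, 2.47 and 2.28 after HGF. The 16HBE-ex14+HGF arrays lay below all others, and the other 3 groups overlapped. The difference with HGF in 16HBE-ex14 was -0.58 (SE 0.140, adjusted p = 0.0384, below the fold limit) and that between the genotypes with HGF was called (-0.76, SE 0.140, adjusted p = 0.00147). Without HGF it was -0.42 (adjusted p = 0.0533).

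MKI67, the Ki-67 antigen that coats mitotic chromosomes and is the usual stain for cycling cells, was 2.95, 2.86, 3.32 and 3.03 in 16HBE-WT and 2.93, 3.03, 2.92 and 3.43 after HGF, while 16HBE-ex14 read 3.06, 3.28, 3.25 and 3.51 and then 3.11, 2.98, 3.16 and 2.97 after HGF. All groups overlapped. It differed by -0.22 with HGF in 16HBE-ex14 (SE 0.135, adjusted p = 0.512), and by -0.021 between the genotypes with HGF (adjusted p = 0.939), a value whose sign turned under normexp, median and spike-in scaling. Its probes disagreed there, the farthest of them at -0.51. Over the 9 genes with several probes, the other 10 probes had the sign of the brightest for HGF in 16HBE-ex14 in every case. Between the genotypes 1 of 10 had the opposite sign with HGF (CDK1, -0.025 against 0.22), and 5 of 10 had it without HGF.

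Some of the genotype differences ran with those of neighbouring genes, so each of the 39 was set beside the median of up to 50 tested genes around it, 25 on either side. Without HGF the neighbours of TTK on chromosome 6 (hg19 chr6:80749430-80749489 for the probe of TTK) had a median of -0.435 and TTK was at -0.65, and the neighbours of CDC20 on chromosome 1 had -0.242 and CDC20 was at -0.62. FOXM1 (0.222), KIF11 (0.305) and CDK1 (0.314) had neighbours with medians above 0, the sign of the gene itself. For PLK1 the neighbours were at 0.294 and the gene at 0.144. With HGF its neighbours had the highest median of the 39 (0.353), while PLK1 was at -0.223. With HGF the neighbour medians of the 11 called genes ran from -0.473 for TTK to 0.189 for TOP2A, and the genes lay lower than these by -0.443 to -0.946, where the sign follows from the choice of genes called lower. Of all 39 genes, 35 lay below their neighbours with HGF (median -0.373) and 23 without (median -0.027). The neighbours' part in single differences was not tested.

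Related lists of genes were set beside the 39. A further 80 G2/M genes had a median of -0.169 with HGF in 16HBE-ex14, with 67 below 0, against 39.6% of all genes. None of the 80 was called and 25 had an unadjusted p below 0.05, against 14.3% of all genes. Of all genes 0.986% were called lower and 1.13% higher. In 16HBE-WT the 80 genes had a median of 0.0119, with none called and 1 with such a p, against 0% and 4.71% of all genes. With HGF between the genotypes 12 of the 80 were called lower and 1 higher (CENPM, 0.59), against 5.36% and 5.3% of all genes. The median of the 80 was -0.174. The genes called lower were led by SGO2 (-1.10), which protects centromeric cohesin, DEPDC1 (-1.04) and CENPW (-0.90), a centromere protein. Without HGF 3 of the 80 were called lower (CENPW -0.79, SGO2 -0.70 and DEPDC1 -0.62) and 3 higher (PKMYT1 0.71, CENPM 0.70 and CENPN 0.70). Of all genes 4.75% were called lower and 4.51% higher, near the shares of the 80, whose median was -0.0107. The 80 genes thus followed the direction of the 39 with smaller medians.

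The DNA replication genes, which act earlier in the cycle in S phase, had medians near 0 with HGF in both genotypes. Of 35 genes, with HGF in 16HBE-ex14 none was called lower and 1 higher (CCNE1, cyclin E1, 0.59), against 0.986% and 1.13% of all genes. The median of the 35 was -0.0306. In 16HBE-WT none was called, 2 had an unadjusted p below 0.05 (4.71% of all genes) and the median was 0.00123. Between the genotypes 3 of the 35 were called higher and 1 lower without HGF, against 4.51% and 4.75% of all genes. With HGF 5 were called higher and 1 lower, against 5.3% and 5.36%. The medians of the 35 were 0.18 without HGF and 0.0705 with it. CDT1, which loads the replicative helicase, was higher by 1.19 without HGF and 1.16 with it, GINS2, a subunit of that helicase, by 1.10 and 1.12, and RRM2, a subunit of ribonucleotide reductase, differed by -0.64 and -0.71. GINS3 was the other of the largest 3 without HGF (0.64). CDT1, GINS2 and GINS3 all lie on chromosome 16, as do PKMYT1 and CENPN above and RBL2 below, and the part of that shared position was not tested. Of 13 mitotic transcription factors and repressor subunits, none was called with HGF in 16HBE-ex14 (median -0.0482). An unadjusted p below 0.05 was found there for 1 of the 13, against 14.3% of all genes. RBL2, the pocket protein p130 of DREAM, was called higher without HGF between the genotypes (0.59), as were 4.51% of all genes. With HGF none of the 13 was called, and 5 had such a p, against 31.6% of all genes.

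The 39 genes varied together across arrays, to differing degrees. The correlation of a gene with the mean of the other 38 over the 16 arrays, which share groups, slides and scaling, had a median of 0.744, and 28 were above 0.5. With the group means removed it was 0.529, and 25 were above 0.5. It was then highest for AURKA (0.945), CENPA (0.902), BUB1 (0.886) and KIF20A (0.872), and lowest for CDC25C (0.003), CENPF (0.083) and KIF4A (0.191). Over the 16 arrays it was negative for CCNA2 (-0.258), FOXM1 (-0.247), KIF11 (-0.226), CCNB2 (-0.214) and CDK1 (-0.086). These are the 5 genes whose brightest probe had a genotype difference above 0 with HGF. One main axis held 68% of the variance of the 39 genes and the next held 12.9%.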

How the data were processed

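Gene expression was measured on 16 arrays, 4 per group, and groups were taken from the genotype and treatment labels. As deposited by the authors, values are spot intensities from Agilent Feature Extraction 10.7.3.1, linear and background-subtracted. The normalization between arrays is not given in the sources used here. Log2 intensities minus the 75th percentile of the array were averaged per probe, leaving out 1093 outlier spots. The 34600 of 58201 probes well above background on at least 4 arrays were fitted with limma 3.58.1 in R 4.3.3, with 1 mean per group over 16 arrays and 5 contrasts. The fit was tested on simulated data. Figures were drawn with matplotlib 3.10.9. The members and lists were chosen with earlier results of these data known. Values on every array are given for MKI67, TOP2A, CCNB1, CDK1, PLK1, AURKA, BUB1, FOXM1, CDC20, UBE2C and each called member. For other lists, the 3 called genes with the largest change per contrast are named. Alternatives covered background correction, scaling, filters, blocks, priors, thresholds and left-out arrays. Arrays give no counts, so their number limits the precision.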

Additional observations from a re-analysis of the deposited data

Results flagged for a closer look

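Over the genes with values on every array and the score, 72 sets of 4 arrays were examined, and 3 held an array whose gap to the others passed Dixon's critical value, where chance gives about 3.6. AURKA was 4.161 on 16HBE-ex14 replicate 4, against 3.82 to 3.848 on the other 3 arrays. FOXM1 was 4.156 on 16HBE-ex14+HGF replicate 3, against 3.919 to 3.952. TTK was 2.995 on 16HBE-WT+HGF replicate 3, against 2.266 to 2.363.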

How the results depend on the processing

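The number of the 39 genes called with HGF in 16HBE-ex14 (0) became 3 with median scaling, 3 with no fold change limit and 11 with slide as a block and no limit. Without HGF between the genotypes it (2) became 0 with normexp, spike-in scaling or limma's treat, 6 with quantile normalization, with or without slide as a block, 11 with no fold change limit and 15 with slide as a block and no limit, and with median scaling 2 other genes (FOXM1 and KIF11, higher) were called. With HGF between the genotypes it (11) became 8 with normexp or median scaling (without ANLN, CDC20 and CDC25C), 13 with quantile normalization, 17 with no fold change limit, 0 with treat and 21 with slide as a block and no limit. The counts of all genes also rose with no fold change limit, to 1.6% lower and 1.46% higher for HGF in 16HBE-ex14. Between the genotypes these shares were 8.34% and 9.91% without HGF, and 9.97% and 10.6% with it. Shares of all genes under the other settings are not given here, so those counts are not a result about the 39 in particular. The score moved to -0.427 for HGF in 16HBE-ex14 and to 0.045 for the genotypes without HGF under median scaling. MKI67 between the genotypes with HGF turned to 0.07325 with normexp, 0.07424 with median and 0.01789 with spike-in scaling, to 0.002725 and 0.006982 without 16HBE-ex14+HGF replicate 2 or 4, and to 0.09582 without 16HBE-WT+HGF replicate 4, with -0.07449 the lowest value when an array was left out. UBE2C turned to 0.03568 with normexp and 0.0358 with median scaling. The cause of these changes was not tested. Leaving out each array in turn gave 0 to 3 called for HGF in 16HBE-ex14, 1 to 5 without HGF and 11 to 14 with it, and scores of -0.305 to -0.221, -0.139 to -0.07 and -0.406 to -0.315. For HGF in 16HBE-WT and for the difference of the responses the scores were -0.045 to 0.047 and -0.314 to -0.213, and the counts called stayed at 0 under every alternative run. With array row as a replicate block the counts were 0, 2 and 11 as in the fit without it. Arrays of the same row deviated together no more than arrays of the same slide (median correlation 0.205 against 0.212). A pairing by row could thus not be seen beyond the slide. Across slides the median was -0.197, but with group means taken out, positive values within slides force negative ones across them. Whether rows are the weekly cultures is not given in the sources used here. Quantile normalization with slide as a block, and slide as a block with no fold limit, were chosen after seeing the data.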
